A study of Mus musculus with 4 samples.

Results

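The genes described here are 8 death receptor and caspase genes in spleen regulatory T (Treg) cells: Tnfrsf10b, Fas, Fadd, Casp8, Cflar, Casp6, Casp9 and Xiap. Chosen as named receptors, adaptor, caspases and caspase inhibitors of apoptosis, they were found by symbol in the deposited table, which holds 20837 genes, and all 8 passed the filter on low counts that left 13861 genes for testing. Treg cells are T cells marked by Foxp3, which hold other immune cells in check. The control group had the genotype Foxp3YFP-CreKmt2d+/+ (WT, 2 libraries) and the other group Foxp3YFP-CreKmt2dfl/fl (cKO, 2 libraries). Both carry a Cre recombinase driven from Foxp3, so that Kmt2d, a histone H3 lysine 4 methyltransferase gene, is to be deleted only in cells that express Foxp3. Neither the age of the mice nor whether each library is a separate mouse is given in the sources used here, and p-values therefore reflect only how far these libraries differ, possibly for technical reasons. The extraction text in the labels is about macrophages of another knockout, at odds with the fields for tissue, cell type and genotype, and the groups follow those fields.

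Death receptors carry signals from ligands on other cells into apoptosis. When Fas ligand binds Fas, or TRAIL binds the receptor encoded by Tnfrsf10b, the adaptor Fadd joins the receptor and recruits procaspase 8, which cleaves itself and then executioner caspases. The Cflar product, c-FLIP, resembles caspase 8 but lacks its catalytic cysteine and can take its place in the complex. Damage signals instead release cytochrome c from mitochondria, which activates caspase 9, and Xiap binds and blocks caspase 9 and some executioner caspases. In T cells Fas is best known for removing cells that have been stimulated repeatedly.

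The codons around the catalytic cysteine are shown because they separate the caspases among these genes from c-FLIP, whose level is later set against that of caspase 8. The coding strand is printed 5′ to 3′ from GENCODE M21 transcripts on GRCm38, the assembly also called mm10, with 7 codons on each side. Capitals mark the catalytic cysteine codon of the caspases and, in Cflar, the codon at the same distance behind the last stretch that aligned with Casp8.
Casp8: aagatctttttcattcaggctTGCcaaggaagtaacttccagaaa
Cflar: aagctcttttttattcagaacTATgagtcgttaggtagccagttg
Casp6: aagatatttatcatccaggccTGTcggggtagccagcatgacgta
Casp9: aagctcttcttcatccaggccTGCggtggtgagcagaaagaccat
The Casp8 stretch lies in exon 9 of its transcript at chr1:58844598-58844642 and the Cflar stretch in exon 10 at chr1:58752602-58752646, both on the plus strand. Those of Casp6 (chr3:129910681-129912144) and Casp9 (chr4:141807232-141811552), also on the plus strand, run across a splice junction, between exons 5 and 6 and between exons 6 and 7. In the 3 caspases the marked codon reads TGC or TGT, both codons of cysteine, and in Cflar it reads TAT.

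The libraries held 28442416 to 35560491 counts, and 1 read stood for 0.0288 to 0.0344 CPM (counts scaled to library size with TMM factors). Kmt2d counts did not fall in the libraries labelled cKO: its level was 721 and 704 CPM in WT against 836 and 793 CPM in cKO. Kmt2d was called higher in cKO (log2 fold change 0.19, edgeR quasi-likelihood adjusted p = 0.0375), a call lost in 6 of 12 alternatives. The labels do not name the exons to be deleted, so a count over the whole gene is no check of the label, and WT and cKO below stand for the libraries so labelled. Foxp3 was present in every library, at 278 and 250 CPM in WT and 170 and 180 CPM in cKO, and fell by 0.59 on the log2 scale (SE 0.07, edgeR quasi-likelihood adjusted p = 0.00493). The list of 10 Treg genes did not move as one: 4 fell, 1 rose and 5 were not called, and the sums overlapped between the groups (3728 and 2906 CPM in WT, 2518 and 3130 CPM in cKO). The 11 pan T cell genes in the table summed to 5541 to 5740 CPM in WT and 4476 to 4853 CPM in cKO, and 8 of them fell, 0 rose and 3 did not pass (median log2 fold change -0.32). Transcripts of 12 neutrophil genes summed to 79.2 to 203 CPM in WT and 639 to 1369 CPM in cKO, and all 12 rose (median 2.98). Genes of other cell types were also called higher in cKO, 7 of 9 for basophils and mast cells (median 3.41), 9 of 10 for CD8 T and NK cells (0.60), 7 of 10 for dendritic cells (0.53) and 3 of 10 for B cells (0.83). Of 12 macrophage and monocyte genes 2 rose and 1 fell (median -0.28), and of 7 erythroid and platelet genes 1 rose (median -0.38). Despite that median, the macrophage and monocyte sum was higher in cKO, at 1002 and 851 CPM against 581 and 771 CPM in WT. Of 13 proliferation genes 12 rose (median 0.88), and their sum went from 831 to 942 CPM in WT to 1366 to 1463 CPM in cKO. The Y-linked Ddx3y measured 206 to 235 CPM and Xist at most 0.131 CPM in all 4 libraries, so these transcripts show no difference in sex between the groups.

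Of the 8 genes, 1 fell, 1 rose and 6 did not pass the test (edgeR quasi-likelihood test, adjusted p under 0.05). Over all tested genes 31.6% were called, 15.1% lower and 16.5% higher in cKO, so a count of 2 in 8 is no larger than the background share. The share of all genes called was 16.5% with the replicate number as a block and 20.0% with DESeq2, and with 1 library left out it was 13.3% (WT 1), 19.2% (WT 2), 15.2% (cKO 1) or 17.5% (cKO 2). The CPM values of the groups did not overlap for 3 of the 8 genes (Tnfrsf10b, Casp6 and Casp8), against 66.0% of all tested genes. The comparison asks how the RNA of these genes differs when Kmt2d is to be deleted in Foxp3-expressing cells. In bulk RNA, fewer cells that express a gene and less RNA per cell cannot be told apart.

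**Figure D1:**
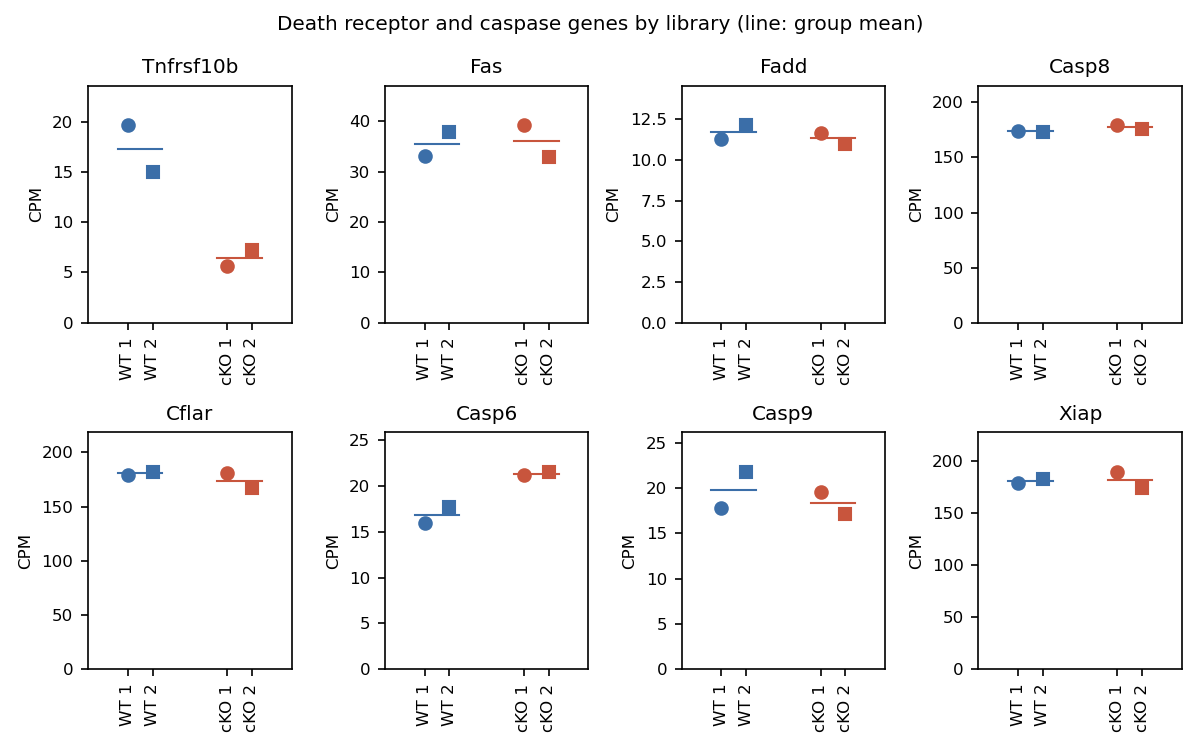
CPM of the 8 genes (y axis, from 0) in the 4 libraries (x axis). Points are libraries (blue WT, red cKO) and lines are group means. Tnfrsf10b stands at 19.6 and 15.0 CPM in WT and at 5.60 and 7.24 CPM in cKO, while the points of Fas, Fadd, Cflar, Casp9 and Xiap interleave.

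Tnfrsf10b was the gene that fell. It encodes the only death receptor for TRAIL in the mouse (gene number 21933, mm10 chromosome 14, 69767472 to 69784411, plus strand). It had 681 and 457 counts in WT and 163 and 250 in cKO, which is 19.6 and 15.0 CPM against 5.60 and 7.24 CPM. Both WT libraries were above both cKO libraries, and the lower WT value was still above the higher cKO value by more than the gap within either group. The libraries of a group were themselves apart, by 30.8% in WT and 29.2% in cKO. The level fell from 17.3 ± 3.27 to 6.42 ± 1.16 CPM (mean ± SD, n = 2 libraries each), 2.69-fold lower in cKO, with a log2 fold change of -1.43 (SE 0.18, 95% interval -1.87 to -0.98, edgeR quasi-likelihood adjusted p = 0.00543). Of the 13861 tested genes, 249 (1.80%) had a log2 fold change as low or lower. The call held in all 12 alternatives, with log2 fold changes between -1.63 and -1.22. The pan T cell genes had a median of -0.32 between the same groups and the neutrophil genes one of 2.98. The basophil, CD8 T and NK, dendritic and B cell lists were also higher in cKO, as was the macrophage and monocyte sum. The part of these lists in the fall of Tnfrsf10b was not tested.

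Fas, the receptor of Fas ligand (gene number 14102, chromosome 19, 34290647 to 34327775, plus strand), did not pass. It measured 33.1 and 37.9 CPM in WT and 39.2 and 32.8 CPM in cKO. The highest and the lowest value both belonged to cKO, with WT between them. The log2 fold change was 0.02 (SE 0.11, edgeR quasi-likelihood adjusted p = 0.930), and its 95% interval, from -0.25 to 0.29, corresponds to -15.9% to 22.0%. Fas counts were 1.69 and 2.53 times those of Tnfrsf10b in the WT libraries and 6.99 and 4.54 times in those labelled cKO, a ratio that needs no scaling between libraries. The groups did not overlap in this ratio, and no test of it was run, since a two-sided exact permutation test of 2 against 2 libraries gives no p below 0.333.

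**Figure D2:**
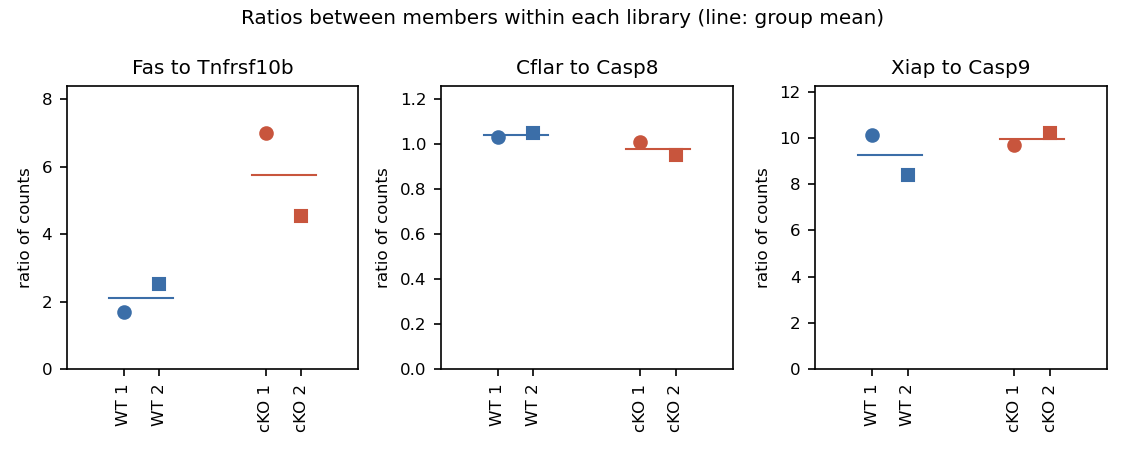
Ratios of read counts between pairs of members within each library (y axes, from 0), with group means as lines. Fas to Tnfrsf10b goes from 1.69 and 2.53 in WT to 6.99 and 4.54 in cKO. Cflar to Casp8 goes from 1.03 and 1.05 in WT to 1.01 and 0.951 in cKO, a small difference also without overlap. Xiap to Casp9 lies between 8.40 and 10.2, with overlapping groups.

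None of the 3 receptor-proximal genes, Fadd, Casp8 and Cflar, passed the test. Fadd, the adaptor (gene number 14082, chromosome 7, 144578323 to 144582441, minus strand), had the fewest reads of these 3, 339 to 392 per library. It measured 11.3 and 12.1 CPM in WT and 11.7 and 11.0 CPM in cKO, and the groups overlapped (log2 fold change -0.05, SE 0.09, 95% interval -0.28 to 0.19, edgeR adjusted p = 0.775). An antisense gene, Faddos, overlaps 239 exonic bases of Fadd on the other strand. The use of strand in counting is unstated, and reads of both could be counted together.

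Casp8, the initiator caspase of the receptor complex (gene number 12370, chromosome 1, 58795233 to 58847503, plus strand), had the narrowest interval of the 8. It measured 174 and 173 CPM in WT and 179 and 176 CPM in cKO. Both cKO values lay above both WT values, yet the log2 fold change was 0.03 (SE 0.05, 95% interval -0.08 to 0.14, edgeR adjusted p = 0.695). In percent the interval runs from -5.55% to 10.5%.

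Cflar (gene number 12633, 58711311 to 58758884, plus strand) lies 36.3 kb before Casp8 on chromosome 1. It measured 180 and 182 CPM in WT and 181 and 168 CPM in cKO, with the single low value in cKO 2 (log2 fold change -0.05, SE 0.06, 95% interval -0.19 to 0.08, edgeR adjusted p = 0.538). Per read count, Cflar stood to Casp8 at 1.03 and 1.05 in WT and at 1.01 and 0.951 in cKO. The cKO ratios were below both WT ratios, with means of 1.04 in WT and 0.980 in cKO, and the difference has no test. The ratio of Cflar to Fadd overlapped between the groups, at 15.9 and 15.0 in WT and 15.5 and 15.3 in cKO.

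Casp6 was the gene that rose. It encodes an executioner caspase known for cleaving nuclear lamins (gene number 12368, chromosome 3, 129901415 to 129914112, plus strand). It measured 16.0 and 17.7 CPM in WT and 21.2 and 21.5 CPM in cKO, so that both cKO libraries were above both WT libraries. The level rose from 16.8 ± 1.22 to 21.4 ± 0.260 CPM (mean ± SD, n = 2), a log2 fold change of 0.35 (SE 0.08, 95% interval 0.14 to 0.55, edgeR quasi-likelihood adjusted p = 0.0259). The rise of 27.1% is small and the call is not firm: it ended on leaving out WT 1 (edgeR adjusted p = 0.123), on leaving out cKO 1 (0.0906) and on leaving out cKO 2 (0.106), and with DESeq2 (adjusted p = 0.139), while it held without WT 2 (0.0394). It also ended with the replicate number as a block (edgeR adjusted p = 0.0867). Transcripts of proliferation and of neutrophils, basophils, CD8 T and NK, dendritic and B cells were higher in the same libraries, as given above. The macrophage and monocyte sum was higher too. The part of these transcripts in the rise of Casp6 was not tested.

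Casp9, the initiator caspase of the mitochondrial route (gene number 12371, chromosome 4, 141793612 to 141815978, plus strand), did not pass. It measured 17.7 and 21.8 CPM in WT and 19.5 and 17.1 CPM in cKO, and the gap within WT, 22.6%, was wider than the difference between the group means. The log2 fold change was -0.11 (SE 0.12, 95% interval -0.42 to 0.20, edgeR adjusted p = 0.593), the widest interval among the genes that did not pass. Casp9 shares 94 exonic bases with Cela2a on the opposite strand, but Cela2a had at most 1 count in a library. Ctrc, also on the opposite strand, shares 94 exonic bases with Casp9 too, and it was not among the counted genes.

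Xiap, the X-linked inhibitor of caspases (gene number 11798, chromosome X, 42059613 to 42109664, plus strand), measured 179 and 183 CPM in WT and 190 and 175 CPM in cKO. The cKO libraries lay on either side of the WT pair. The log2 fold change was 0.01 (SE 0.06, 95% interval -0.13 to 0.15, edgeR adjusted p = 0.947), and its sign turned with RLE scaling (-0.011), without the filter (-0.00026) and with DESeq2 (-0.011). Xiap had 10.1 and 8.40 times the counts of Casp9 in WT and 9.71 and 10.2 times in cKO, with overlapping groups.

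**Figure D3:**
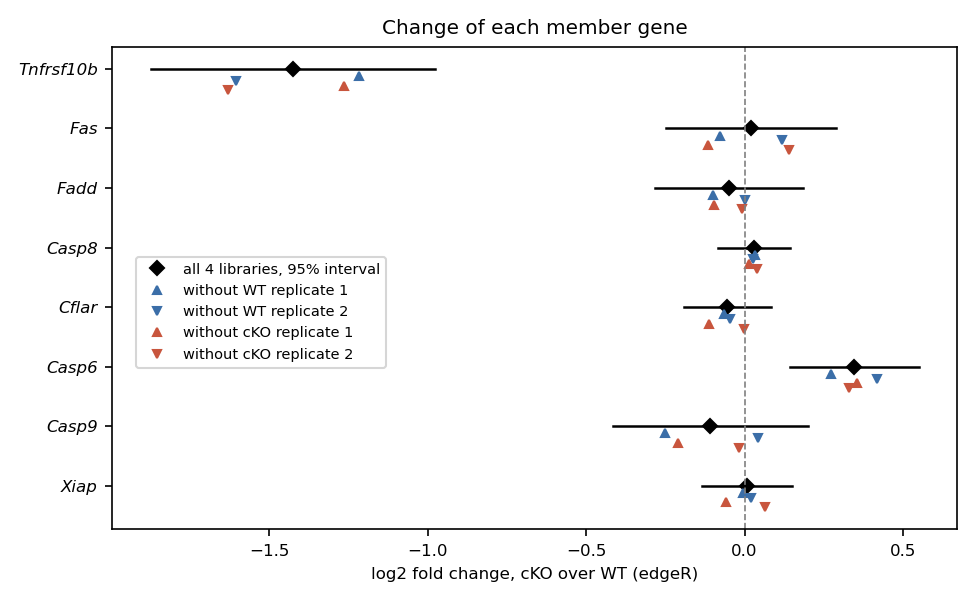
Log2 fold change of cKO over WT from edgeR (x axis) for each of the 8 genes (y axis). Diamonds with lines are estimates with 95% intervals from all 4 libraries, and triangles are estimates without 1 library. Tnfrsf10b at -1.43 and Casp6 at 0.35 have intervals that leave out 0, and the other 6 intervals include it.

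Per kilobase of the longest protein-coding transcript, the genes ranged over an order of magnitude in WT. Casp8 was highest at 67.3 CPM per kb, followed by Cflar (27.5), Xiap (26.5), Fas (24.0) and Casp6 (11.6). Tnfrsf10b (5.44), Casp9 (5.07) and Fadd (3.00) were lowest. The WT values of Tnfrsf10b (6.17 and 4.72) and of Casp9 (4.55 and 5.58) overlapped, and the other neighbours in this order had separate WT values. In cKO the Tnfrsf10b level was 2.02 CPM per kb, below that of Fadd (2.90), which put it last. The order depends on the length assumed. Over the union of all exons Casp6 was at 3.01, next to Fadd at 3.00, Xiap (19.1) and Fas (17.2) came next after Casp8, ahead of Cflar, and Casp9 (3.80) stood above Tnfrsf10b (3.18). Cflar was 102 CPM per kb over the transcript with the longest coding sequence and 14.3 over the union of all exons. With the longest coding sequence it stood above Casp8 (94.0).

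By distance of centred log2 CPM over the 4 libraries, the 3 genes among 11138 whose pattern was most like that of Tnfrsf10b were Fam110a, Dusp10 and Fosl2. Dusp10, a phosphatase gene that restrains stress kinases, measured 398 and 317 CPM in WT and 110.0 and 152 CPM in cKO. Fosl2, an AP-1 subunit gene, measured 193 and 158 CPM in WT and 54.9 and 74.8 CPM in cKO. Fam110a measured 34.3 and 28.0 CPM in WT and 9.94 and 12.7 CPM in cKO. The distances were 0.08 (Fam110a), 0.09 (Dusp10) and 0.09 (Fosl2) on the log2 scale. All 3 had WT 1 above WT 2 and cKO 2 above cKO 1, an order that their choice by likeness to Tnfrsf10b brings with it. With 4 libraries this is a description only.

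The other genes of the pathway were counted from lists of 124 genes, of which 115 were tested. Of these 26 rose, 26 fell and 63 did not pass, with a median log2 fold change of -0.03 beside 0.0003 for all tested genes. Called were 52 of 115, a larger share than the 31.6% of all tested genes (16.5% higher, 15.1% lower). The lists were chosen with earlier results of these data known, and the count of each list is to be read beside these shares. Some genes stand in more than 1 list, such as Bbc3 (BCL2 family and p53) and Apaf1 (apoptosome and p53). The 52 genes called became 28 when WT 1 was left out, 33 for WT 2, 29 for cKO 1 and 33 for cKO 2. On the ligand side, 3 of 6 genes fell and 0 rose (median -0.27), but on leaving out WT 1 or cKO 1, or with the replicate block, 1 fell (Fasl). Fasl, the ligand of Fas, went from 21.6 ± 0.334 CPM down to 14.4 ± 1.37 CPM, with a log2 fold change of -0.59 (SE 0.09). Tnf fell by 0.34 on the log2 scale, but leaving out WT 1 (edgeR adjusted p = 0.0741) or cKO 1 (0.0770), or the replicate block (0.0568), ended the call. Lta, the lymphotoxin alpha gene, fell by 0.37, a call that ended on leaving out WT 1 (edgeR adjusted p = 0.0680), WT 2 (0.0559) or cKO 1 (0.0717) and with the block (0.0521). The marker lists above moved between the same groups, and their part in the ligand changes was not tested. Tnfsf10, which encodes TRAIL, the ligand of the Tnfrsf10b product, measured 66.1 and 65.5 CPM in WT and 64.0 and 60.1 CPM in cKO, without passing the test (log2 fold change -0.09, 95% interval -0.22 to 0.05).

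Among 7 other receptors and decoys tested, 3 fell, 1 rose and 3 did not pass (median -0.35), and Ngfr, Eda2r and Tnfrsf11b had too few counts to test. Tnfrsf1b, the gene of TNF receptor 2, fell from 387 ± 47.6 CPM in WT to 221 ± 15.2 CPM in cKO, with a log2 fold change of -0.81 (SE 0.10). Tnfrsf25, death receptor 3, fell by 0.50 on the log2 scale. Tnfrsf26 fell by 0.35, but its call ended with the replicate block (edgeR adjusted p = 0.0541) and on leaving out WT 1, WT 2 or cKO 1. Tnfrsf21, death receptor 6, rose by 0.67 (SE 0.10), from 8.61 ± 0.488 to 13.7 ± 0.727 CPM. Tnfrsf1a, the TNF receptor that carries a death domain, had a log2 fold change of -0.03 (95% interval -0.27 to 0.21, not passing). For Tnfrsf1b, Tnfrsf25 and Tnfrsf21, adjusted p (edgeR quasi-likelihood test) lay between 0.00512 and 0.00704, and for Tnfrsf26 it was 0.0159.

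Of 21 adaptors and regulators of receptor complexes, 6 fell, 1 rose and 14 did not pass (median -0.01), and the single rise ended on leaving out any 1 library. Tnfaip3, which encodes the ubiquitin-editing enzyme A20, fell from 4104 ± 341 CPM in WT to 2535 ± 268 CPM in cKO (log2 fold change -0.69 with SE 0.10, edgeR quasi-likelihood adjusted p = 0.00607). The deubiquitinase gene Cyld fell by 0.33, the TNF receptor adaptor gene Traf2 by 0.42 and the death effector domain gene Dedd2 by 0.60 on the log2 scale. Each of these 4 kept its call in all 12 alternatives.

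Casp2, Casp1 and Casp4, other caspase genes, did not pass the edgeR quasi-likelihood test or DESeq2. Casp2 measured 65.5 and 64.9 CPM in WT and 73.0 and 71.1 CPM in cKO, with both cKO values above both WT values (log2 fold change 0.14, 95% interval 0.02 to 0.26, edgeR adjusted p = 0.0730). Casp1, which matures inflammatory cytokines, had a log2 fold change of 0.18 (95% interval -0.08 to 0.44) and Casp4 one of -0.03 (95% interval -0.24 to 0.18). Around caspase 9, 2 of 8 apoptosome and mitochondrial genes rose and 6 did not pass (median 0.17), a count of 2 that became 1 on leaving out WT 1, WT 2 or cKO 2, with the replicate block and with DESeq2, and 0 on leaving out cKO 1. The second of them, Aifm1, which encodes a mitochondrial flavoprotein, rose by 0.28 on the log2 scale and lost its call on leaving out any 1 library (edgeR adjusted p = 0.0528 to 0.110). Apaf1, the scaffold that activates caspase 9, rose from 71.4 ± 0.470 CPM in WT to 88.0 ± 2.78 CPM in cKO, by 0.30 on the log2 scale (SE 0.05), but not without cKO 1 (edgeR adjusted p = 0.0643).

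In the BCL2 family, which controls cytochrome c release, 5 of 14 genes were higher in cKO, 1 was lower and 8 did not pass (median 0.15). The higher genes became 2 on leaving out WT 1, cKO 1 or cKO 2, with the replicate block and with DESeq2, and 3 on leaving out WT 2. The lower gene, Bcl2a1b, which has near-identical copies, lost its call in each of these fits (adjusted p = 0.0511 to 0.162 by edgeR or DESeq2). The proapoptotic gene Bbc3 went from 23.5 ± 0.533 to 42.7 ± 0.283 CPM (log2 fold change 0.86) and the antiapoptotic gene Bcl2 from 261 ± 12.7 to 392 ± 3.52 CPM (0.59). Bik had the highest log2 fold change of this list, 1.39 (edgeR quasi-likelihood adjusted p = 0.0172). Its call ended with the replicate block (edgeR adjusted p = 0.0547) and with DESeq2 (adjusted p = 0.0940). Among 8 other IAP proteins and antagonists, 2 rose, 2 fell and 4 did not pass (median -0.01), and on leaving out WT 1 or cKO 2 only Birc5 was called higher. Naip5 and Naip6, sensors of bacterial proteins that carry IAP domains, fell by 1.29 and 0.80 on the log2 scale. They are near-identical copies between which the counting could have split reads, so their values are uncertain. Birc5, survivin, a gene of dividing cells, rose by 0.83 (SE 0.12), in libraries in which 12 of 13 proliferation genes, Birc5 among them, rose. Birc2 (log2 fold change 0.07) and Birc3 (-0.08), which act at TNF receptors, did not pass.

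**Figure D4:**
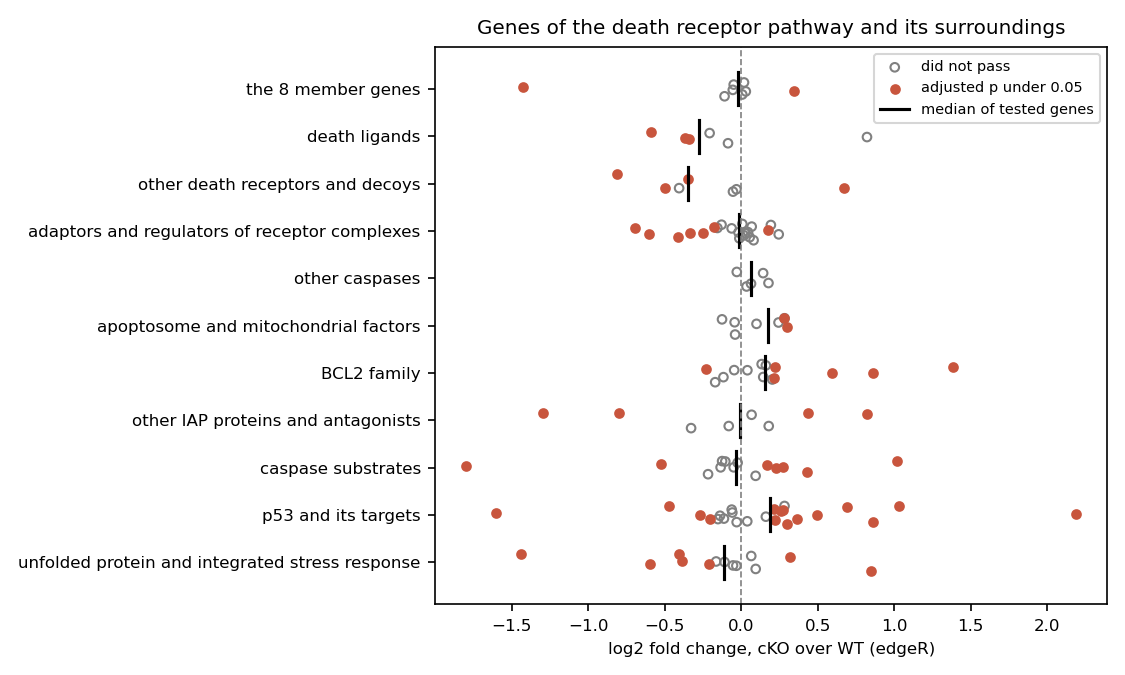
Log2 fold change of cKO over WT from edgeR (x axis) for the tested genes of each list (y axis). Filled points have an adjusted p under 0.05, open points do not, and bars are medians. Ligands (median -0.27) and other receptors (-0.35) lie mostly left of 0, and p53 targets (0.19) and the BCL2 family (0.15) mostly right of it.

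Tnfrsf10b and Fas are both known as targets of p53, and Tnfrsf10b also of the stress factor CHOP, the product of Ddit3. Of 24 other p53 pathway genes tested, 11 rose, 4 fell and 9 did not pass (median 0.19). Over all tested genes 16.5% were called higher and 15.1% lower. Tnfrsf10b fell by 1.43 and Fas had a log2 fold change of 0.02. The 11 that rose became 6 on leaving out cKO 1 and 7 on leaving out WT 1, WT 2 or cKO 2, and the 4 that fell became 2 on leaving out WT 1 or cKO 1. Bbc3 rose as above, the apoptosis effector gene Perp rose from 1.04 ± 0.334 CPM in WT to 4.74 ± 0.183 CPM in cKO, by 2.19 on the log2 scale (SE 0.24), and Ddit4 rose by 0.69 (SE 0.09), whereas Trp53inp1 fell by 0.47 (SE 0.06). The edgeR quasi-likelihood adjusted p of these 4 genes lay between 0.00242 and 0.00543. Cdkn1a, the best known p53 target, measured 18.5 and 13.9 CPM in WT and 13.0 and 16.5 CPM in cKO, with overlapping groups, and missed the threshold.

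Of 13 genes of the unfolded protein and integrated stress responses, 5 fell and 2 rose, and 6 missed the threshold (median -0.11). The 5 that fell became 3 on leaving out WT 1, WT 2 or cKO 1, and the 2 that rose became 1 for WT 1 or cKO 1 and 0 for WT 2 or cKO 2. Atf4, the central transcription factor of the integrated stress response, fell from 381 ± 6.84 CPM in WT to 288 ± 18.4 CPM in cKO (log2 fold change -0.40 with SE 0.06, edgeR quasi-likelihood adjusted p = 0.00704). Ppp1r15a, its feedback phosphatase subunit, fell by 0.60 and the chaperone gene Dnajb9 by 0.38 on the log2 scale. Asns, of the same list, went the other way and rose by 0.85 (edgeR quasi-likelihood adjusted p = 0.0159). Its call ended with the replicate block (edgeR adjusted p = 0.0524). Ddit3 itself measured 26.4 and 19.5 CPM in WT and 17.6 and 24.9 CPM in cKO, with overlapping groups, and did not pass. Cdkn1a and Ddit3 were chosen for mention after their values were seen.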

How the data were processed

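RNA-seq of 4 libraries (2 WT, 2 cKO) was compared. The authors deposited a table of raw read counts per gene, and, per the submitters' processing notes, the build is mm10. The aligner, the counter and the use of strand were not given in the sources used here. Gene coordinates are those of RefSeq on GRCm38, which is mm10, and strands are from GENCODE M21. No deposited p-values or fold changes were used.

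The counts were filtered with filterByExpr (minimum count 10, minimum total 15), scaled by TMM and tested with edgeR 4.0.16 (quasi-likelihood test, R 4.3.3), with Benjamini-Hochberg adjustment over all 13861 tested genes and a threshold of 0.05. Standard errors are the log2 fold change divided by the root of F, and 95% intervals use the moderated degrees of freedom. A count of 3 stood for 0.0864 to 0.103 CPM. DESeq2 1.42.0 and limma 3.58.1 (voom), other scalings and filters, a replicate block and leaving out each library were alternatives. A replicate block with crossed numbers, chosen after seeing the data, was also among the 12 alternatives. The test script was tested on simulated data. The 8 genes, the lists and the marker lists were chosen with earlier results of these data known. Beyond the 8, up to 4 genes of each list with the smallest p could be named, and members of any class of 5 or fewer. Transcript sequences are from GENCODE M21, read with Biopython 1.88. Libraries of a group differed by more than sampling noise (chi-square per degree of freedom 10.2 in WT, 9.48 in cKO). Some genes of the lists are not reported here by name.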

Additional observations from a re-analysis of the deposited data

How the results depend on the processing

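The fall of Tnfrsf10b held in all 12 alternatives, among them the crossed pairing described below. The count of genes called went from 4380 to 2292 with the replicate number as a block and 2876 with DESeq2, and to 1869 to 2747 without 1 library. Genes called among the 8 went from 2 to 1 with the block and with DESeq2, and to 1 to 2 without 1 library. Pathway genes called went from 52 to 29 with the block and to 28 to 33 without 1 library. The Casp6 log2 fold change was 0.35 with the replicate block and 0.33 with DESeq2, neither past the threshold, and 0.27 to 0.42 without 1 library. The sign of Xiap turned with RLE scaling (-0.011), without the filter (-0.00026) and with DESeq2 (-0.011).

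Without 1 library, signs also turned for genes that did not pass: Xiap (-0.057 to 0.064), Casp9 (-0.25 to 0.043), Fadd (-0.099 to 0.00055), Fas (-0.12 to 0.14), Birc2 (-0.038 to 0.17), Birc3 (-0.19 to 0.040), Casp4 (-0.12 to 0.063), Cdkn1a (-0.33 to 0.082), Ddit3 (-0.39 to 0.13) and Tnfrsf1a (-0.15 to 0.072). The labels do not say that a replicate number marks shared animals, and same-numbered libraries deviated in opposite directions (correlation -0.32 over 13861 genes). The crossed pairing, chosen after seeing the data, called 6713 genes. The cause of these changes was not tested. With 2 libraries in each group, a lone library is assumed to vary like the other group. The lowest count among the 8 genes, 163 for Tnfrsf10b, has a counting error of 7.83%.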

Other observations

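Caspase substrates were counted among the pathway genes above but not described there. Among the 14 in the list 5 rose and 2 fell, and the other 7 missed the threshold (median log2 fold change -0.04). Lmna, which encodes the lamin that caspase 6 is known to cleave, measured 12.6 and 11.9 CPM in WT and 2.44 and 4.52 CPM in cKO (log2 fold change -1.80, SE 0.26, edgeR quasi-likelihood adjusted p = 0.00673). Lmnb1, the gene of another nuclear lamin, went the other way, from 139 ± 9.02 CPM in WT to 188 ± 6.38 CPM in cKO, up by 0.43 on the log2 scale (SE 0.06). The kinase gene Stk4, whose product caspases activate by cleavage, fell from 685 ± 46.2 CPM in WT to 476 ± 8.70 CPM in cKO, by 0.52 on the log2 scale (SE 0.06). These 3 calls held in all 12 alternatives, whereas the 5 genes that rose became 1 on leaving out WT 1 or cKO 1 and 2 on leaving out WT 2 or cKO 2.

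Within the groups, WT 2 was above WT 1 and cKO 1 above cKO 2 in 5 of the 8 genes (Fas, Fadd, Cflar, Casp9 and Xiap), a pattern that 35.8% of tested genes showed. Tnfrsf10b had the opposite order in both groups, as did 31.5% of tested genes.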
